A study of Homo sapiens with 36 samples.

Results

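MAP3K5, also called ASK1, and the kinases and thioredoxin proteins around it were followed in 36 expression arrays of an osteosarcoma cell line in which the transcription factor E2F1 can be switched on. The 10 genes listed were MAP3K5, TXN, TXNIP, MAP2K3, MAP2K4, MAP2K6, MAP2K7, MAPK8, MAPK9 and MAPK14, and every probe set that the array annotation gave to them was taken, whatever its level or change. 8 of the 10 genes had such probe sets, 18 of the 22215 tested, while MAP2K7 and MAPK14 were not analysed here. Each gene was represented by its brightest probe set, and the others are given beside it.

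MAP3K5 is a kinase that starts a 3-tier cascade in cells under oxidative or other stress. Reduced thioredoxin, the product of TXN, binds MAP3K5 and holds it inactive, and TXNIP binds and inhibits thioredoxin. Active MAP3K5 phosphorylates the MAP2Ks, of which MAP2K4 and MAP2K7 activate the JNK kinases (MAPK8 and MAPK9 among them) and MAP2K3 and MAP2K6 activate p38 kinases such as MAPK14. Sustained JNK or p38 signalling is known for its part in stress-induced cell death. These are steps between proteins, and the arrays measured RNA only.

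The cells were U2OS ER-HA-E2F1, 1 stable line of human osteosarcoma cells that carries E2F1 fused to an oestrogen receptor domain, so that 4-hydroxytamoxifen (OHT) activates the fusion. Every culture received 1 of 4 siRNAs. The negative controls came from Sigma and from Dharmacon, and those against NFYB from Ambion and from Dharmacon. NFYB encodes a subunit of the CCAAT-binding factor NF-Y. At 18 h after transfection the medium was changed to one without serum for 24 h, and RNA was taken before OHT (0 h) or 4 h or 8 h after 80 nM OHT. Each siRNA and time had 3 arrays, which the labels call biological replicates without saying what was separate between them, so the errors cover the spread between these arrays. All arrays carried the fusion gene, a transfected siRNA and serum starvation. Every 4 h and 8 h array had OHT and a longer time without serum, and no array had OHT without the fusion or the added hours without OHT, so E2F1, OHT and time cannot be told apart.

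Values were MAS5 signals, a linear brightness scaled by the authors to a common mean per array, and differences are given on the log2 scale from a limma fit over 6 arrays a group. A probe set was called where its p, adjusted over all 22215 probe sets, was under 0.05. NFYB itself was lower with its siRNAs, at 66.6 ± 10.7 against 187 ± 15.7 at 0 h and 127 ± 46.8 against 649 ± 59.5 at 8 h (signal, mean ± SD, n = 6), a log2 difference of -1.50 and -2.44. Arrays of 1 siRNA and time correlated at r = 0.951 to 0.962 over all probe sets, and arrays that differed in siRNA or time at 0.908 to 0.959, so the ranges overlapped. Of 8 mesenchymal and bone markers, COL1A2 and RUNX2, the latter a defining gene of bone cells, lay near the floor, with median signals of 22.3 and 15.1, while SPARC, VIM, FN1, COL1A1, CDH2 and THY1 had medians from 579 to 15978. The leukocyte markers were dim (PTPRC 12.5, CD3E 33.7), as were the epithelial and endothelial ones with the exception of EPCAM, at 326. The summed signal of 4 endothelial markers ran from 77.8 to 171 at 0 h and from 40.6 to 70.4 at 8 h with control siRNA, and its part in the results was not tested.

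The start-site sequences of 4 measured members are shown because the study perturbed E2F1 and NF-Y, and these windows differ in what they hold of the CCAAT box. Each run gives the 250 bases before a RefSeq transcript start on GRCh38.p14, 5′ to 3′ on the gene's strand, with CCAAT or its reverse complement ATTGG in capitals. The stretches are chr6:136793092-136793341 (minus strand) for MAP3K5, chr1:145996580-145996829 (minus) for TXNIP, chr17:21284461-21284710 (plus) for MAP2K3 and chr5:180292084-180292333 (minus) for MAPK9.
MAP3K5: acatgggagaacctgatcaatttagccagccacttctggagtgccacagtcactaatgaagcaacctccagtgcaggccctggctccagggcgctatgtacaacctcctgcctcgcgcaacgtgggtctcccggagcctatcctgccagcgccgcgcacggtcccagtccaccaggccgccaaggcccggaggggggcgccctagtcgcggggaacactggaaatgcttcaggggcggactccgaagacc
TXNIP: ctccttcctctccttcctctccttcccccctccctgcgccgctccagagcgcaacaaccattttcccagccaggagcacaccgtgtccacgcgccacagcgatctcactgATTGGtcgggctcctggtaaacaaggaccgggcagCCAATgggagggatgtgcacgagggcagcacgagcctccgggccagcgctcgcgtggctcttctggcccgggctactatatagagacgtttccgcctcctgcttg
MAP2K3: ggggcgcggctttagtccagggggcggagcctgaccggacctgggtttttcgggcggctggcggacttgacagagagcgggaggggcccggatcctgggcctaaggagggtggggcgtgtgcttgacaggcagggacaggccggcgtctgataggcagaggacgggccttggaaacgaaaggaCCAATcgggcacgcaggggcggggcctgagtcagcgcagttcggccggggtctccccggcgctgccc
MAPK9: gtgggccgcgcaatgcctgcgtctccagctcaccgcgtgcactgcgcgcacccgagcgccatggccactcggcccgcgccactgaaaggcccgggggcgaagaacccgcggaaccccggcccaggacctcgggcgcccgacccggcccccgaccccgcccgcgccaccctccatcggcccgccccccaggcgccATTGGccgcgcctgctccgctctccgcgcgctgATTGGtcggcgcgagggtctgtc

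TXNIP held CCAAT at -105 and its reverse complement at -140, MAP2K3 held CCAAT at -67, and MAPK9 held the reverse complement at -56 and -23, counted to the leftmost base of the match from the transcript start. MAP3K5, whose RNA moved most, had neither. Windows were searched over 300 bases, from 250 before to 50 after each start. In that search 4 of 14 windows of the measured members, from 3 genes, held CCAAT on either strand, against 34.6% of all 35116 RefSeq windows. The E2F-type letters TTTCCCGC, TTTGGCGC, TTTCGCGC and TTTGCCGC, on either strand, were in 0 of the 14 windows and in 3.31% of all. A match of letters is no evidence of binding, and a window without them says only that these letters are not there.

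After OHT MAP3K5 RNA rose at both times, and MAP2K3 and MAP2K6 RNA fell by 8 h. In cells with control siRNA, 1 gene rose and 0 fell at 4 h, against 39.3% of all probe sets called in either direction, and 1 rose and 2 fell at 8 h, against 49.9%. Between 4 h and 8 h, 1 rose and 1 fell, against 17.2%. With NFYB siRNA the counts were 1 and 0 at 4 h, against 36.6%, and 1 and 3 at 8 h, against 47.9%. The gene that rose each time was MAP3K5, and those that fell were MAP2K3 and MAP2K6, joined by TXNIP with NFYB siRNA at 8 h. The median log2 change over the 8 genes at 8 h with control siRNA was -0.05, and over all probe sets it was -0.10. Here and below genes were counted on their brightest probe set, while the shares cover all probe sets, dim ones among them. The OHT comparisons of 1 siRNA type share their 0 h arrays, and the siRNA comparisons below use the same arrays again, so these sets of calls are not independent. The RNA came from whole cultures, in which a change in every cell and a change in the number of cells that express a gene cannot be told apart.

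NFYB against control siRNA gave 2 genes higher and 0 lower at 0 h, against 3.58% of all probe sets called, 1 higher and 0 lower at 4 h, against 2.93%, and 1 higher and 2 lower at 8 h, against 4.65%. MAP2K3 was the higher gene each time, with MAP3K5 beside it at 0 h, and MAP2K4 and MAPK8 were the lower ones at 8 h. By limma the 8 h response to OHT differed between NFYB and control siRNA for 0 of the 8 genes. Of all probe sets 0.203% were called. At an unadjusted p under 0.05 stood 1 of 8, and the share of all probe sets at that unadjusted threshold is not given here. A fit with each siRNA and time as its own group called 1 of 8 (MAP3K5). That fit called 290 of all 22215 probe sets, where the fit with 6 groups called 45. Its error leaves out the spread between the siRNAs of an arm.

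**Figure D1:**
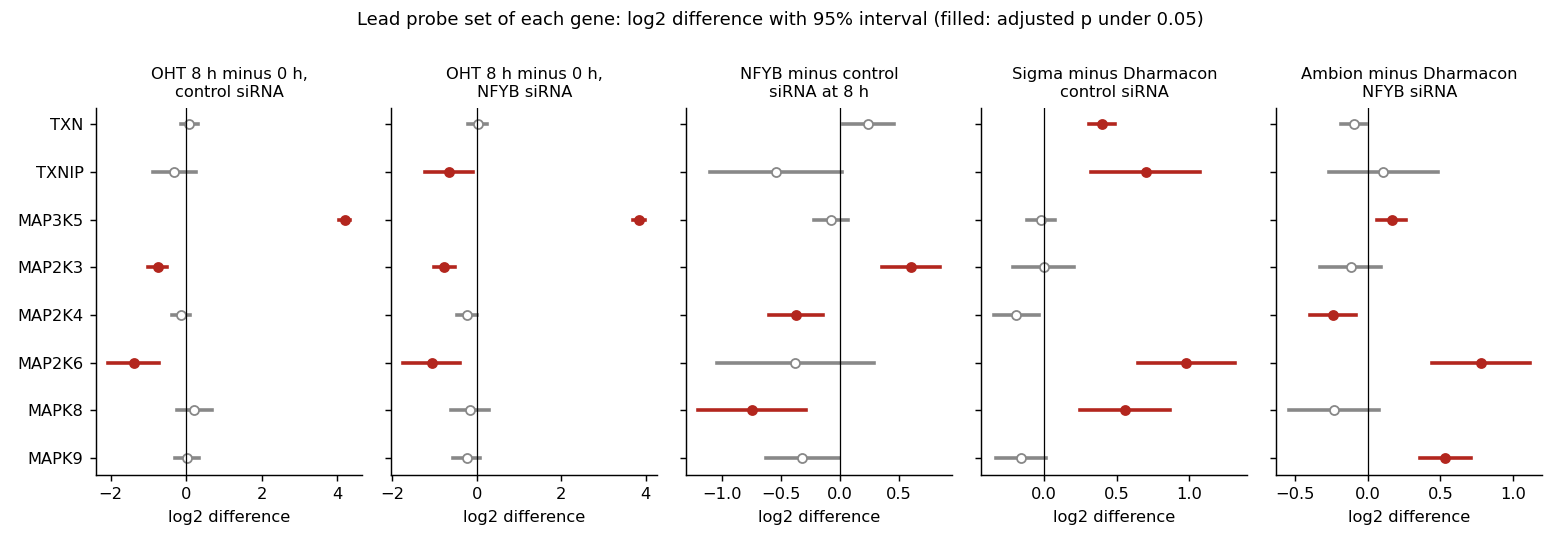
Log2 difference of each gene's brightest probe set (x axis, own scale per panel) with its 95% interval, filled red where the adjusted p was under 0.05, for OHT at 8 h with control and with NFYB siRNA, NFYB against control siRNA at 8 h, and the siRNA pairs of 1 kind. MAP3K5 stands at 4.21 and 3.84 after OHT, and MAP2K3 lies above 0 for NFYB against control siRNA at 8 h.

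MAP3K5 RNA (gene at chr6:136557046-136793091, minus strand) rose in every array that received OHT. Its signal on probe set 203837_at with control siRNA was 154.0, 158.3 and 168.0 at 0 h (lowest, median and highest of 6 arrays), 1553, 1901 and 1976 at 4 h, and 2806, 2931 and 3072 at 8 h. With NFYB siRNA it was 165.1, 203.0 and 215.5, then 1575, 1708 and 1839, then 2490, 2700 and 3260. On this probe set the 3 times did not overlap in either arm. On 203836_s_at with control siRNA the 4 h arrays reached 1738 and the 8 h arrays began at 1583, so these overlapped. With NFYB siRNA they did not, at 1553 and 1622.

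The rise of MAP3K5 with control siRNA was 3.53 on the log2 scale at 4 h (SE 0.0716, 11.6-fold, adjusted p = 4.1e-31) and 4.21 at 8 h (18.5-fold, adjusted p = 2.0e-33). From 4 h to 8 h it rose by a further 0.68 (1.60-fold, adjusted p = 1.0e-08). By size of increase it was 87th of 22215 probe sets at 4 h and 66th at 8 h. The other probe set, 203836_s_at, rose by 3.21, 3.66 and, between 4 h and 8 h, 0.45 (adjusted p = 0.00981). No alternative setting ended the calls of the brighter probe set in these comparisons.

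With NFYB siRNA, MAP3K5 rose by 3.13 at 4 h (8.78-fold) and 3.84 at 8 h (14.3-fold). Its 8 h response was 0.37 lower than with control siRNA on the log2 scale (95% interval -0.57 to -0.16), a difference that was not called (adjusted p = 0.198). Adjusted p for this difference was 0.0161 when each siRNA and time was its own group, a fit whose error leaves out the spread between siRNAs of an arm. On 203836_s_at it was -0.20 (adjusted p = 0.864), with a response of 3.70 for the Dharmacon and 3.22 for the Ambion NFYB siRNA beside 3.66 for each control. The level before OHT was 0.29 higher with NFYB siRNA (adjusted p = 0.0152), with 5 of 6 arrays above every control array, whereas it was -0.11 at 4 h (adjusted p = 0.530) and -0.08 by 8 h (0.652), neither called. The call at 0 h was lost in 8 of 54 alternative settings, whose adjusted p ran from 0.000837 to 0.240, among them the Sigma control alone (0.0957) and each left-out replicate number. On 203836_s_at the 0 h difference was 0.34 and not called.

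By siRNA, the mean MAP3K5 signal before OHT was 158 with the Dharmacon control, 161 with the Sigma control, 183 with the Dharmacon NFYB siRNA and 208 with the Ambion one. At 8 h the order was 2564 with the Dharmacon NFYB siRNA, 2919 and 2972 with the Dharmacon and Sigma controls, and 3033 with the Ambion NFYB siRNA. On this probe set the Ambion siRNA stood highest and its Dharmacon counterpart lowest at 8 h. The order was another on 203836_s_at, with 1835 for the Sigma control, 2012 for the Ambion siRNA, 2026 for the Dharmacon control and 2254 for the Dharmacon NFYB siRNA. On 203837_at over the 3 times the Ambion siRNA was 0.17 above the Dharmacon one (log2, adjusted p = 0.0131), and the controls differed by -0.02, whereas on 203836_s_at neither difference was called (0.15 and -0.19).

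**Figure D2:**
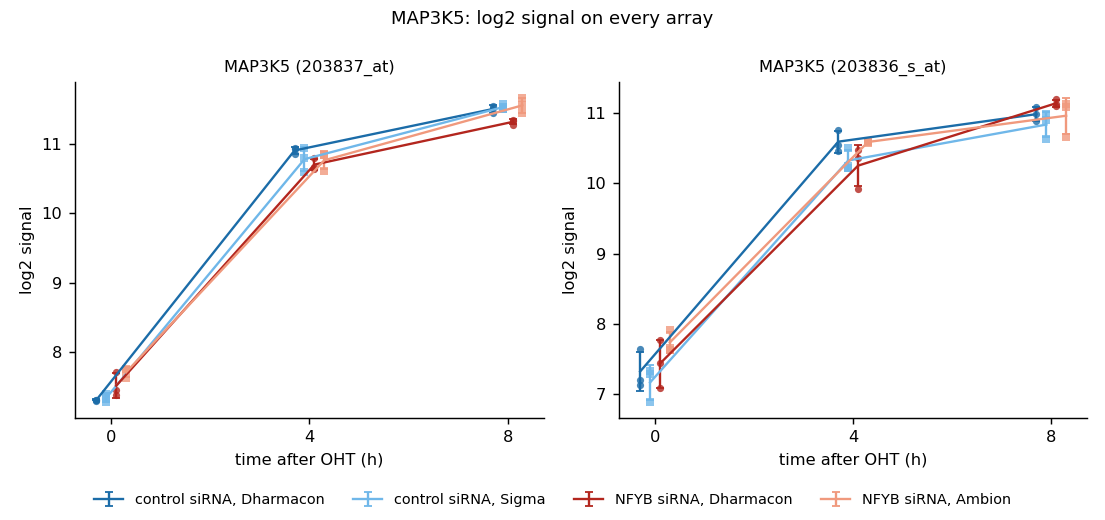
MAP3K5 log2 signal (y axis, own scale per probe set) against hours after OHT, with 1 point per array, shifted sideways by siRNA, and the mean ± SD of 3 arrays per siRNA. All 24 arrays with OHT lie above all 12 without it on both probe sets.

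TXN, which encodes the thioredoxin that restrains MAP3K5, did not pass the test for OHT (gene at chr9:110243810-110256507). Its signal on 208864_s_at with control siRNA was 3961, 5022 and 6395 at 0 h (lowest, median, highest), 3990, 4496 and 5347 at 4 h and 4439, 5386 and 6446 at 8 h. These ranges overlapped throughout. The log2 differences were -0.14 at 4 h (95% interval -0.36 to 0.08) and 0.09 at 8 h (-0.13 to 0.30), and with NFYB siRNA -0.19 and 0.02, none of them called.

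The TXN arrays separated by control siRNA instead. Before OHT the Dharmacon control arrays read 4105, 3961 and 4476 and the Sigma control arrays 5567, 6395 and 6290, with no overlap. Over the 3 times the Sigma control was 0.40 higher on the log2 scale (adjusted p = 9.9e-09), and 0.35 higher on probe set 216609_at (adjusted p = 0.00377). NFYB siRNA stood above the pooled controls by 0.31, 0.26 and 0.24 at 0, 4 and 8 h, differences that were not called. Against the Dharmacon control alone they were 0.58, 0.42 and 0.42, with adjusted p of 4.1e-05, 0.00178 and 0.00172. Against the Sigma control alone they were 0.04, 0.11 and 0.06, none of them called (adjusted p = 0.900, 0.631 and 0.760).

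TXNIP (chr1:145992435-145996579), the thioredoxin inhibitor, had 3 probe sets of unequal brightness that did not all pass the same tests. The brightest, 201009_s_at, stood at the 46.3rd percentile of all probe sets by mean signal, 201010_s_at at the 40.2nd, and 201008_s_at was dim, at the 17.9th. On 201009_s_at the signal with control siRNA was 60.9, 120.3 and 183.3 at 0 h and 57.9, 86.7 and 142.1 at 8 h, and with NFYB siRNA 57.4, 103.7 and 110.5, then 31.7, 63.4 and 82.4. The arms overlapped at all times. The log2 change at 8 h was -0.31 with control siRNA, which was not called, and -0.65 with NFYB siRNA (adjusted p = 0.0491), a call that was lost in 33 of 52 alternative settings (adjusted p 0.00309 to 0.642).

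On 201010_s_at, TXNIP fell with OHT from a starting level that differed between the control siRNAs. The Sigma control arrays read 276.6, 218.1 and 243.9 at 0 h and 27.7, 58.1 and 40.2 at 4 h. The Dharmacon control arrays read 41.0, 50.8 and 54.9 at 0 h and 33.9, 27.1 and 43.3 at 4 h. Before OHT every Sigma array was above every other array, and after 4 h the 2 controls overlapped.

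The pooled change of 201010_s_at with control siRNA was -1.56 after 4 h (adjusted p = 0.000493) and -0.90 after 8 h (adjusted p = 0.0351). By siRNA, the 4 h change was -2.61 with the Sigma and -0.51 with the Dharmacon control, a difference of -2.10 (SE 0.440, adjusted p = 0.0130), and at 8 h it was -1.66 and -0.14, a difference of -1.52 (adjusted p = 0.119). With the Dharmacon control alone neither fall was called (adjusted p = 0.255 and 0.782). The 2 NFYB siRNAs lay closer together, at -0.73 (Ambion) and -0.93 (Dharmacon) at 4 h and -1.34 and -1.16 at 8 h, and their pooled 8 h fall of 1.25 was called (adjusted p = 0.00348), with 6 of 6 arrays below every 0 h array. The dim 201008_s_at fell by 2.02 at 4 h with control siRNA (adjusted p = 0.0158), by 1.93 at 4 h with NFYB siRNA (adjusted p = 0.0232) and by 2.08 at 8 h with NFYB siRNA (adjusted p = 0.0103). Its 4 h change was -2.94 with the Sigma and -1.11 with the Dharmacon control, from mean 0 h signals of 60.6 and 10.6.

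No TXNIP probe set was called for NFYB against control siRNA. On 201010_s_at the 0 h difference was 0.58 and 0.56 for the Ambion and Dharmacon siRNAs against the Dharmacon control, and between -1.78 and -1.75 against the Sigma control, so the sign there depended on the control used. At 8 h all 4 pairings were negative, at -0.62 and -0.47 against the Dharmacon and -1.43 and -1.28 against the Sigma control. These values have no test of their own.

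**Figure D3:**
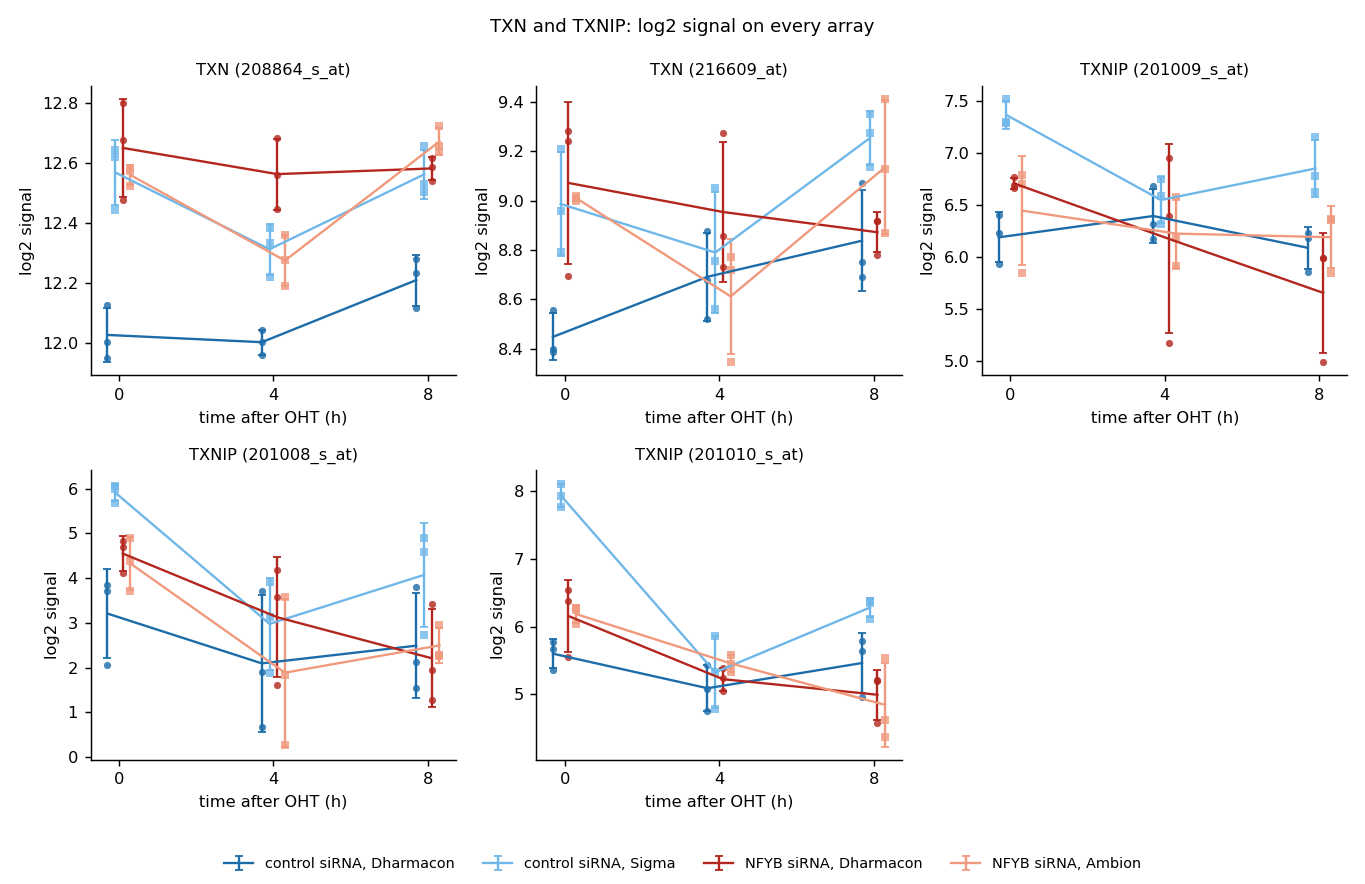
TXN and TXNIP log2 signal (y axis, own scale per probe set) against hours after OHT, with 1 point per array, shifted sideways by siRNA, and the mean ± SD of 3 arrays per siRNA. The Sigma control arrays of TXNIP 201010_s_at start between 218.1 and 276.6 in signal and meet the Dharmacon control arrays at 4 h.

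MAP2K3, an activator of p38 kinases, was higher with NFYB siRNA at every time and fell by 8 h of OHT in both arms (gene at chr17:21284711-21315240). Its 3 probe sets are also annotated to the pseudogene LOC100996792, so the signal cannot be given to MAP2K3 alone. On 215498_s_at the control arrays read 602.0, 839.6 and 973.9 at 0 h (lowest, median, highest), 540.3, 733.2 and 861.0 at 4 h, and 398.8, 438.8 and 608.0 at 8 h. The NFYB siRNA arrays read 973.7, 1257 and 1461, then 963.5, 1116 and 1226, then 619.5, 700.8 and 803.2. At 4 h and 8 h every NFYB siRNA array was above every control array, and at 0 h 5 of 6 were.

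The MAP2K3 difference between NFYB and control siRNA was 0.62, 0.61 and 0.60 on the log2 scale at 0, 4 and 8 h (adjusted p = 0.00152, 0.00233 and 0.00191). It was positive in all 4 pairings of an NFYB with a control siRNA at all 3 times, between 0.47 and 0.76. Probe set 207667_s_at gave 0.49, 0.38 and 0.38, called at 0 h only (adjusted p = 0.0221), and 215499_at gave 0.38, 0.34 and 0.56, called at 0 h (0.0421) and 8 h (0.00146). The study chose 2 of these probe sets on these arrays for their change with NFYB siRNA, so the 8 h difference is no independent evidence. With the Ambion siRNA alone the calls of 215498_s_at at 0 h and 8 h were lost (adjusted p = 0.0961 and 0.0827, within 0.000661 to 0.140 over all settings), and the methods' unequal-variance test on log2 signal called it at none of the 3 times (adjusted p = 0.108, 0.0583 and 0.0505). On linear signal that test lost the 0 h call alone (adjusted p = 0.106). These calls used the adjusted threshold, whereas the study chose its probe sets by its own p and fold limits at 8 h. Leaving out replicate number 2 ended the calls at 0 h and 8 h, and replicate number 3 at 4 h and 8 h.

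The fall of MAP2K3 with OHT was seen at 8 h and not at 4 h. The 4 h change was -0.12 with control and -0.13 with NFYB siRNA, neither called, and the 8 h change was -0.75 (adjusted p = 2.3e-06) and -0.76 (adjusted p = 1.9e-06). The other probe sets fell by 0.51 and 0.56 at 8 h with control siRNA, both called. The 8 h response differed by -0.01 between the arms (95% interval -0.37 to 0.34).

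MAP2K6 (chr17:69414697-69553865), the other activator of p38, fell with OHT. On 205698_s_at the Sigma control arrays read 198.5, 180.4 and 145.0 at 0 h and 39.5, 70.0 and 68.9 at 8 h. The Dharmacon control arrays read 74.8, 86.6 and 95.3, then 37.7, 32.0 and 43.1. All 6 arrays at 8 h lay below all 6 at 0 h.

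The 8 h change of MAP2K6 was -1.39 with control siRNA (adjusted p = 0.000487) and -1.06 with NFYB siRNA (adjusted p = 0.00706), where 4 of 6 arrays lay below every 0 h array. At 4 h it was -0.58 and -0.55, neither called. The call with control siRNA was lost when all probe sets of the gene were averaged (-0.76, adjusted p = 0.0971), 1 of 52 settings with adjusted p from 4.2e-07 up, and the call with NFYB siRNA was lost with the Dharmacon siRNA alone (-0.64, adjusted p = 0.297). The second probe set, 205699_at, was dim, at the 8.94th percentile, and was called in no comparison.

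MAP2K6 also differed between siRNAs of 1 kind. The Sigma control was 0.98 above the Dharmacon control over the 3 times (adjusted p = 2.0e-05), and the Ambion NFYB siRNA was 0.78 above the Dharmacon one (adjusted p = 0.000702). At 0 h the Ambion arrays read 117.4, 125.9 and 100.9 and the Dharmacon NFYB siRNA arrays 43.6, 41.7 and 62.0. NFYB against control siRNA was -0.71, -0.68 and -0.38 at 0, 4 and 8 h, none of them called, and the Ambion siRNA was 0.13 to 0.42 above the Dharmacon control while the other pairings were negative.

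MAP2K4 (chr17:12020877-12143828), which activates JNK kinases and can activate p38, had signals of 385.6, 400.6 and 459.9 at 8 h with control siRNA and 272.2, 305.4 and 374.9 with NFYB siRNA on 203266_s_at. The NFYB siRNA arrays all lay below the control arrays. The difference was -0.38 (adjusted p = 0.0457), close to the threshold, and it was lost in 26 of 54 alternative settings (adjusted p 0.00590 to 0.311), among them the Sigma control alone and each of the 3 replicate numbers left out. At 0 h and 4 h it was -0.28 and -0.38, not called. OHT gave -0.18 and -0.14 at 4 h and 8 h with control siRNA, not called, and the second probe set, 203265_s_at, was called for OHT at 8 h with NFYB siRNA only (-0.45, adjusted p = 0.0106).

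**Figure D4:**
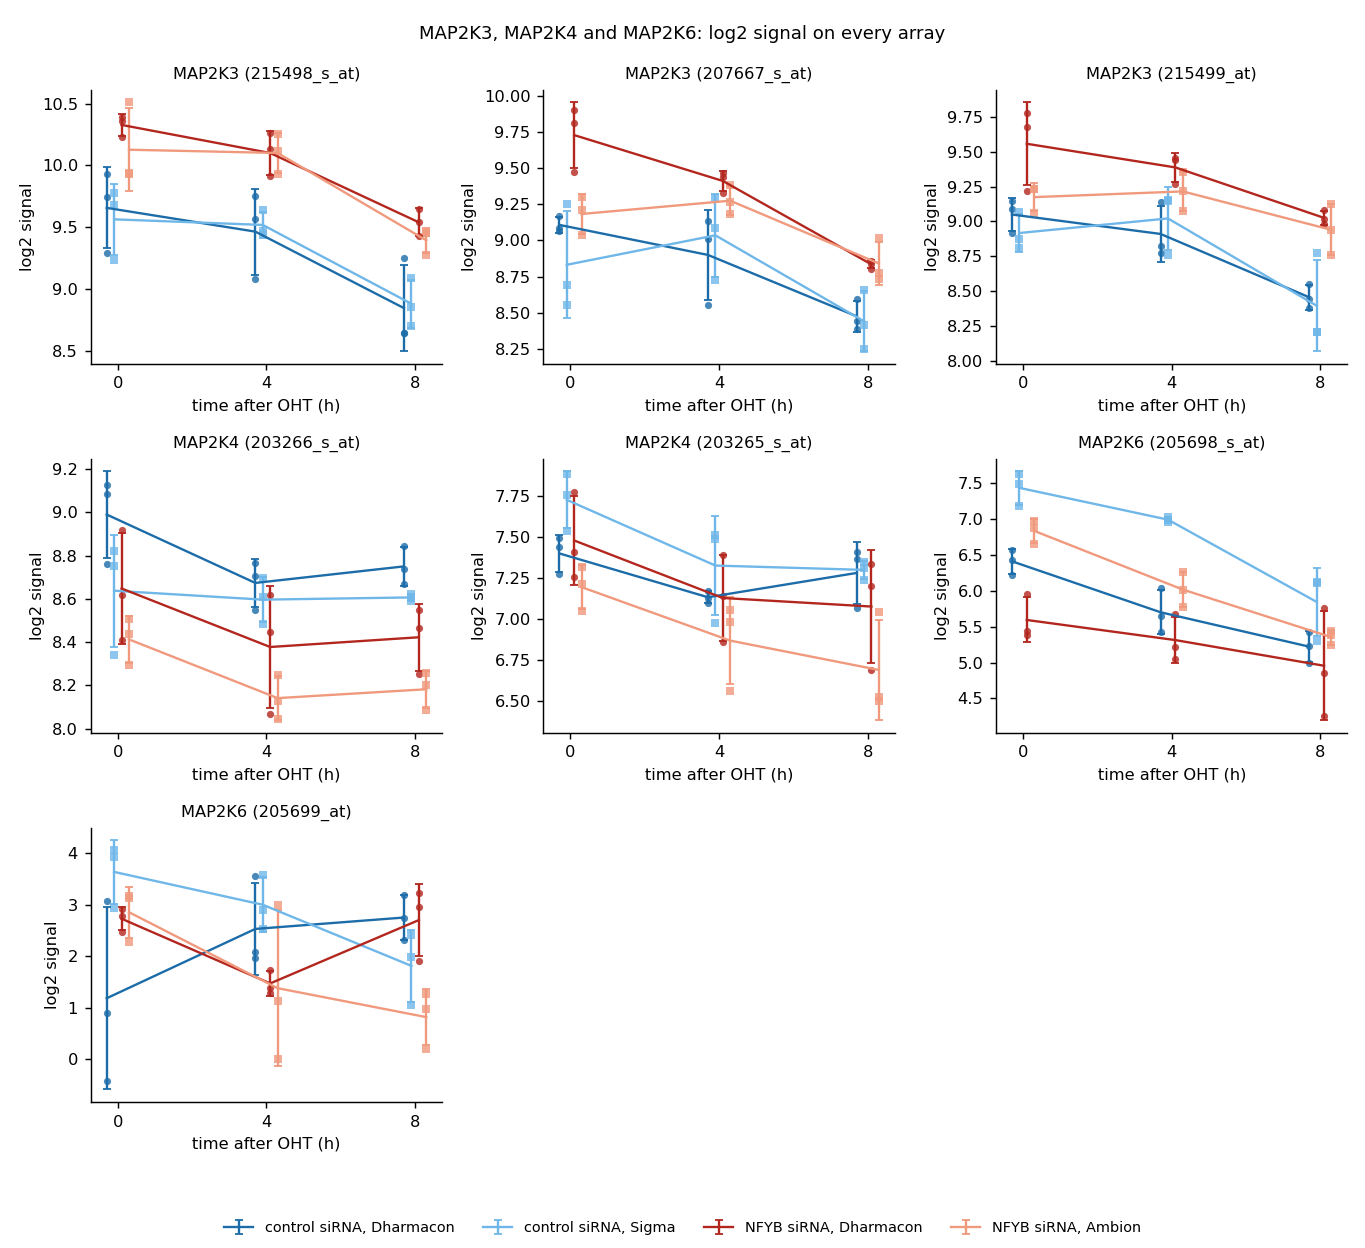
Log2 signal of the MAP2K3, MAP2K4 and MAP2K6 probe sets (y axis, own scale per probe set) against hours after OHT, with 1 point per array, shifted sideways by siRNA, and the mean ± SD of 3 arrays per siRNA. On MAP2K3 215498_s_at both NFYB siRNAs run above both controls, and on MAP2K6 205698_s_at the Sigma control starts highest.

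The JNK genes gave no OHT call on their brightest probe sets. MAPK8 (JNK1, chr10:48306677-48439360) read 54.1, 107.9 and 132.2 at 0 h and 89.3, 108.5 and 167.0 at 8 h with control siRNA on 210477_x_at. With NFYB siRNA it read 46.7, 70.1 and 118.7, then 43.7, 68.9 and 91.9. The OHT changes at 8 h were 0.22 (95% interval -0.24 to 0.67) and -0.15 (-0.61 to 0.30), and the times overlapped in both arms.

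MAPK8 was 0.75 lower with NFYB than control siRNA at 8 h (log2 difference -0.75, adjusted p = 0.0454), with 5 of 6 arrays below every control array. The call was lost in 24 of 54 alternative settings, over which the difference ran from -0.97 to -0.41 and the adjusted p from 0.00546 to 0.626, the last without replicate number 2. The other probe set, 210671_x_at, gave -0.41 and was not called (adjusted p = 0.352). The Sigma control was 0.56 above the Dharmacon control over the 3 times (adjusted p = 0.00543), and the 8 h difference from the controls was -0.61 and -0.49 against Dharmacon and -1.01 and -0.88 against Sigma.

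MAPK9 (JNK2, chr5:180233143-180292083) had signals of 422.8, 544.6 and 615.7 at 0 h and 442.8, 525.2 and 627.1 at 8 h with control siRNA on 203218_at, a change of 0.03 (95% interval -0.28 to 0.34). Its 210570_x_at was called at 4 h (-0.42, adjusted p = 0.0390), but that call was lost in 13 of 51 alternative settings (adjusted p 0.00124 to 0.839) and the value was -0.09 with the Sigma control alone. The NFYB siRNAs parted on this gene. At 8 h the Ambion arrays read 484.3, 598.7 and 462.8 and the Dharmacon arrays 398.1, 406.3 and 273.2, and over the 3 times Ambion was 0.54 above Dharmacon (adjusted p = 1.9e-05), or 0.46 on 210570_x_at. NFYB against control siRNA was not called at any time.

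**Figure D5:**
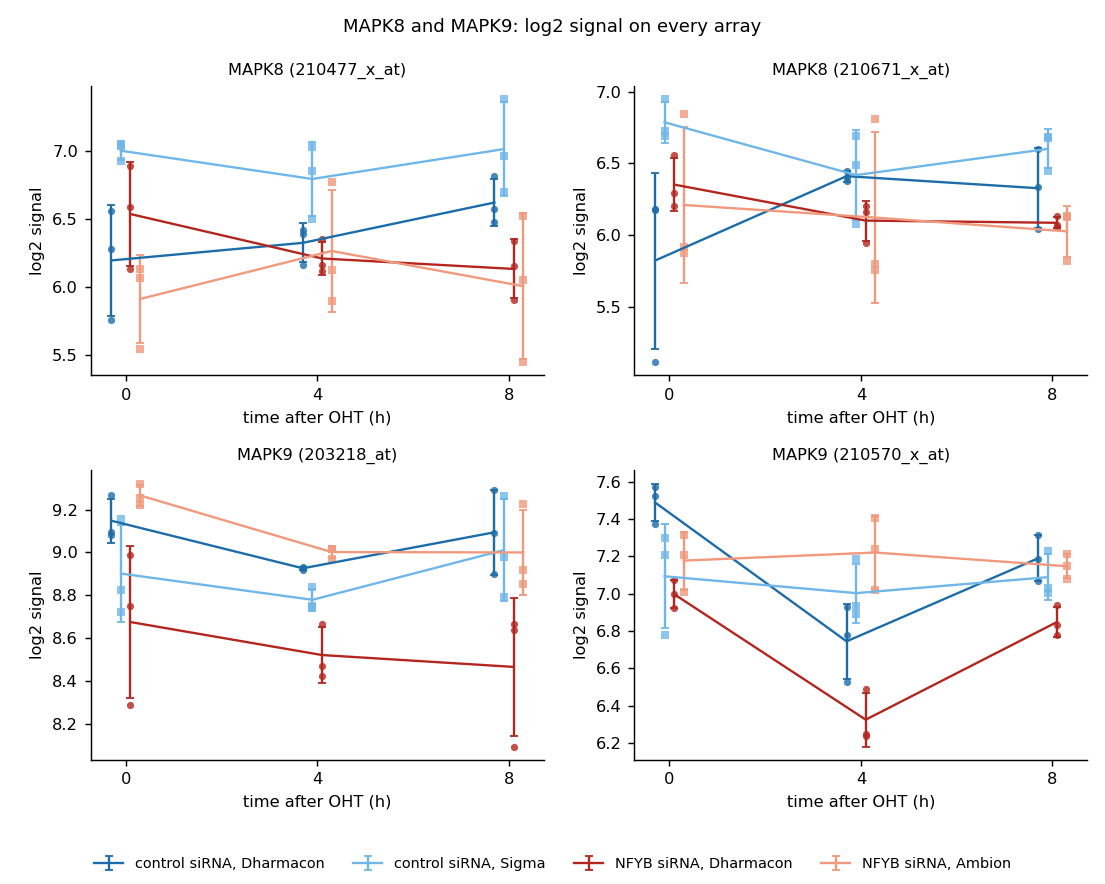
Log2 signal of the MAPK8 and MAPK9 probe sets (y axis, own scale per probe set) against hours after OHT, with 1 point per array, shifted sideways by siRNA, and the mean ± SD of 3 arrays per siRNA. MAPK9 203218_at runs higher with the Ambion than with the Dharmacon NFYB siRNA, and no OHT change was called on it.

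The siRNAs of 1 kind also differed from each other, compared over the 3 times. Sigma against Dharmacon control called 4 higher and 0 lower, against 25.6% of all probe sets. The 4 genes were TXN, TXNIP, MAP2K6 and MAPK8. Ambion against Dharmacon NFYB siRNA called MAP3K5, MAP2K6 and MAPK9 higher and MAP2K4 lower (-0.24, adjusted p = 0.0297), against 17.1%. NFYB itself was 0.59 higher with the Ambion than with the Dharmacon NFYB siRNA.

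Whether the OHT response itself depended on the siRNA within an arm was compared after the TXNIP arrays had been seen. For Sigma minus Dharmacon control, 2 of 8 genes had an unadjusted p under 0.05 at 4 h and 0 at 8 h. For Ambion minus Dharmacon NFYB siRNA these counts were 0 and 1. The share of all probe sets at that unadjusted threshold is not given here. After adjustment limma called 0 of the 8 genes in any of these comparisons. Of all probe sets it called 0.59% and 0.815% between the controls at 4 h and 8 h. Between the NFYB siRNAs it called 0.54% and 2.35%. Among all 18 probe sets TXNIP 201010_s_at was the exception, at 4 h between the controls.

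Around the measured members, the other genes of the pathway moved both ways at 8 h of OHT with control siRNA. Of 15 other stress MAP3Ks measured, 4 rose and 4 fell, a share of 53.3% called, near the 49.9% of all probe sets. MAP3K9, a mixed-lineage kinase, rose by 1.67, while MAP3K7 (TAK1) changed by -1.54 and MAP3K11 by -1.19. The median log2 change of the list was 0.07, against -0.10 over all probe sets. This list and those below took each gene's brightest probe set, while the 49.9% covers dim probe sets too. In the brighter 60% of probe sets by signal 9937 of 13329 were called, so the shares are not like for like.

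Of 4 scaffolds measured, 2 rose and 1 fell, where 49.9% of all probe sets were called. SPAG9 (JIP4), which holds JNK and p38 modules, rose by 1.92 and MAPK8IP2 by 2.22, whereas MAPK8IP3 changed by -1.25. Of 10 regulators of MAP3K5, 3 rose and 4 fell, or 70% against the same 49.9%. CDC25A, a cell cycle phosphatase, rose by 2.18, and GLRX (glutaredoxin, which can restrain MAP3K5 as thioredoxin does) fell by 1.35, with TRAF6, which promotes MAP3K5 activation, at -0.77.

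In the thioredoxin system 1 of 10 rose and 6 fell, 70% called against 49.9% of all probe sets, with a median of -0.32. The brighter 60% of probe sets, with 9937 of 13329 called, are the closer comparison for the shares given here. The mitochondrial proteins TXN2 and TXNRD2 changed by -0.74 and -0.96, and nucleoredoxin (NXN) by -0.99. Of 17 JNK and p38 substrates 6 rose and 6 fell (70.6% against 49.9%), among them MEF2A at 1.01, JUND at 0.76 and ELK1 at -0.77. The other JNK and p38 kinases (MAPK10, MAPK11, MAPK12 and MAPK13) gave 0 calls of 4 by limma, at -0.14, 0.10, 0.22 and -0.42. In the ERK cascade, measured for comparison, 3 of 6 rose and 2 fell (83.3% against 49.9%), MAP2K1 by 1.02, MAPK7 by 0.73 and ARAF at -0.55. For each gene given a value here and called, all 6 arrays at 8 h lay beyond all 6 at 0 h, with the exception of ELK1, where 5 of 6 did.

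With NFYB against control siRNA at 8 h, 4 of the 66 genes measured in these lists were called, all higher, a share of 6.06% beside 4.65% of all probe sets. They were MAPKAPK3, a p38 substrate, at 0.58 (adjusted p = 0.0020), MAP3K11 at 0.50 (0.0107), TXNRD2 at 0.38 (0.0083) and the peroxiredoxin PRDX4 at 0.23 (0.0074). MAP3K11 and TXNRD2 had fallen with OHT in control cells. In the brighter 60% of probe sets 1318 of 13329 were called for NFYB against control siRNA at 8 h.

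The 5 genes most like MAP3K5 in log2 signal over the 36 arrays, among 7965 brighter genes, were RANBP9 (Pearson r = 0.997), PDZRN3 (0.995), PRKAR2B (0.995), BRD1 (0.994) and JADE3 (0.994). The arrays share their times and siRNAs, so this likeness describes a common time course and carries no test. At 8 h of OHT with control siRNA they rose by 2.91, 4.10, 3.04, 2.90 and 2.28, against 4.21 for MAP3K5. Ranked by Spearman correlation, 3 of the 5 stayed among the first 5.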

How the data were processed

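RNA of 36 samples was hybridised to Affymetrix human expression arrays. The authors summarised each probe set with the MAS5 algorithm (Affymetrix Expression Console per the labels, version not given in the sources used here), and the deposited values are linear MAS5 signal intensities scaled to a common trimmed mean. They were used as deposited, with 22277 probe sets an array, minus 62 that are array controls. Signals were turned to log2 with no offset and no filter, and fitted with limma 3.58.1 in R 4.3.3 (6 groups of siRNA type and time, variance trend, Benjamini-Hochberg adjustment over 22215 probe sets, threshold 0.05). Comparisons between siRNAs of 1 kind used 12 groups. The fit was tested on simulated data.

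Arrays were grouped by siRNA and time as labelled. The members and gene lists were chosen with earlier results of these data known. A gene's brightest probe set naming it alone represented it. MAP2K3 has none of that kind, so the brightest of its 3 was used. Named in the text are all members, NFYB, per list up to 3 called genes of lowest adjusted p for OHT at 8 h and up to 2 for NFYB siRNA at 8 h, and the 5 genes most correlated with MAP3K5 among the upper 60% by signal. MAP2K7 and MAPK14 were not analysed here. Promoter windows and gene positions came from RefSeq on GRCh38.p14. Results were computed again with an added constant of 16 before log2, after quantile scaling, in the brighter 60% of probe sets, without the variance trend, with the compared groups alone, in 12 groups, and with siRNA treated as random. Further variants blocked on replicate number, kept a single siRNA per arm, ran the methods' unequal-variance test, or dropped single arrays or replicate numbers. Another averaged a gene's probe sets but still tested 22215 values an array, so the array as a whole was not averaged by gene. The comparisons of OHT responses between siRNAs of 1 kind, and the alternatives for probe sets other than the brightest, were chosen after seeing the data. The files give no read depth, and the number of arrays limits the precision.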

Additional observations from a re-analysis of the deposited data

Results flagged for a closer look

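On TXNIP 201009_s_at, the second Ambion NFYB siRNA array at 0 h read 57.4. The other 5 arrays with NFYB siRNA at that time read 101.5 to 110.5. In log2 signal the gap was 0.869 of the range of the group. The limit of Dixon's test for such a gap in 6 samples was 0.625, which chance passes in about 1 group in 20. The array was the only one beyond that limit in 48 groups of 6 looked at. Each group pooled 2 siRNAs, so it was not of 1 kind. Without that array the log2 change of TXNIP 201009_s_at for OHT at 8 h with NFYB siRNA was -0.80 (adjusted p = 0.0182), and over all 52 alternatives the adjusted p ran from 0.00309 to 0.642.

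On TXNIP 201010_s_at, the 4 h response to OHT differed between the control siRNAs by -2.10 on the log2 scale (adjusted p = 0.0130), from a higher start with the Sigma control. The call was lost with only the groups compared (adjusted p = 0.0595), without the Dharmacon control array 3 at 4 h (-1.93, 0.0568), without the Sigma control array 1 at 4 h (-1.83, 0.0661) and without replicate number 1 (-1.63, 0.480), 2 (-2.65, 0.0519) or 3 (-2.02, 0.186), and over 45 alternatives its adjusted p ran from 0.00195 to 0.480.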

How the results depend on the processing

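No value called in the report changed sign under any alternative that was run. The count of the 8 genes called for NFYB against control siRNA depended on the setting. At 0 h the count of the 8 genes was 2. It became 4 with the Dharmacon control alone, 1 with the Ambion siRNA alone or with only the groups compared, and 5 with 12 groups. It was 0 with the unequal-variance test on linear or log2 signal, and 0 to 4 when arrays were left out. Of all probe sets 796 were called at 0 h, 1741 with the Dharmacon control alone, 542 with the Ambion siRNA alone and 477 with only the groups compared. With 12 groups 2503 were called, and 196 and 178 with the unequal-variance test on linear and log2 signal. At 4 h the count of the 8 genes was 1. It became 2 with either control alone, with the Ambion siRNA alone or in the upper 60% of probe sets, and 4 with 12 groups. It was 0 with the unequal-variance test on log2 signal, and 0 to 2 when arrays were left out. Of all probe sets 651 were called at 4 h, 1617 and 911 with the Dharmacon and Sigma controls alone and 397 with the Ambion siRNA alone. In the upper 60% 786 of 13329 were called, with 12 groups 2284 and with that test on log2 signal 171. At 8 h the count of the 8 genes was 3. It became 1 with the Ambion siRNA alone, without a variance trend, with quantile normalization or with siRNA as a random block. It was 5 with 12 groups, 0 with the unequal-variance test on log2 signal, and 0 to 3 when arrays were left out. Of all probe sets 1032 were called at 8 h. In the 4 settings with 1 gene the numbers were 555, 893, 991 and 621, in that order. With 12 groups 2953 were called, and 467 with that test on log2 signal. For OHT at 4 h with control siRNA the count of the 8 genes was 1. It was 2 with the mean of all probe sets, 3 with 12 groups and 1 to 2 with arrays left out. Of all probe sets 8740 were called, 8741 with the mean of all probe sets and 10015 with 12 groups. The setting with the mean still tested 22215 values an array, so the array as a whole was not averaged by gene. Its number for all probe sets is therefore no like-for-like background. With NFYB siRNA the count was 1. It became 4 with the mean of all probe sets or 12 groups, 2 with siRNA as a random block or in the upper 60%, and 1 to 2 with arrays left out. Of all probe sets 8124 were called, then 8128, 9488 and 8933 in the first 3 of these settings and 7727 of 13329 in the upper 60%. From 4 h to 8 h the 2 calls became 4 with siRNA as a random block or 12 groups, while the 3824 of all probe sets became 4805 and 5703. The 0 calls of a different 8 h response became 1 with 12 groups, while the 45 of all probe sets became 290. With arrays left out, OHT at 8 h gave 3 calls each time with control and 2 to 4 with NFYB siRNA, and the siRNA comparisons gave 2 to 5 (controls) and 2 to 4 (NFYB). The numbers of all probe sets called with arrays left out are not given here. The cause of these moves was not tested. No unequal-variance test was run for the siRNA means or the differences of responses.

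Replicate numbers gave little sign of pairing the arrays. Over 198 same-numbered pairs the correlation of deviations ran from -0.187 to 0.288 (median 0.00893, against -0.00308 for different numbers). It was over 0.1 in 29 of them. Of 36 arrays, 16 correlated best with their own number out of 3. This check cannot decide whether some of the arrays were paired. With the replicate block, TXNIP 201009_s_at for OHT at 8 h with NFYB siRNA was no longer called (-0.65, adjusted p = 0.0545), so that count went from 4 to 3. For Ambion against Dharmacon NFYB siRNA, MAP2K4 203265_s_at lost its call (0.0514) and MAP2K3 215499_at gained one (0.0328), and no other call of the 18 probe sets changed. Dim probe sets (MAP2K6 205699_at, TXNIP 201008_s_at) have the widest intervals.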
